A study of Mus musculus with 12 samples.

Results

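The mast cell genes described here are 9 genes whose products mark mast cells, the granule-filled immune cells of connective tissue: the proteases Cpa3, Cma1, Mcpt4, Tpsb2 and Tpsab1, the histamine-forming enzyme gene Hdc, and the receptor genes Kit, Ms4a2 and Mrgprb1. They were followed in mouse vessels over 7 days of angiotensin II infusion. Each gene was taken as the array feature (a transcript cluster, the set of probes for 1 transcript locus) whose only annotated gene symbol was that gene; each of the 9 had 1 such feature, among 30702 genes represented in the same way. The set was chosen with measured values in view: Cpa3 was selected on its lower log2 signal at day 7 than at day 3. That difference is therefore given as a description, and Cpa3 was tested only at day 1 against day 0.

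Mast cells mature in tissues under stem cell factor, which binds the receptor Kit, and store proteases, histamine and heparin in their granules. Cross-linking of IgE on its high-affinity receptor, or ligands of Mas-related G protein-coupled receptors, releases the granules. In vessels, mast cells lie mainly in the adventitia and the fat around it, and they are known for chymase, a protease that can make angiotensin II from angiotensin I without the angiotensin-converting enzyme.

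The 12 arrays came from vessels of male C57BL/6 mice, 8 to 10 weeks old, with 3 biological replicates at each of 4 times. Mice were infused with angiotensin II at 1500 ng/kg/min from an implanted osmotic pump for 1, 3 or 7 days, and the day 0 mice were untreated; a group with a pump of vehicle alone is not among the samples, and the sources used here do not say which vessel was taken. Angiotensin II infusion, pump surgery and time in the study therefore cannot be told apart at any treated day. The values are log2 signals as deposited. RNA was extracted from whole vessels, so fewer mast cells and less RNA of a gene per cell cannot be told apart in any value below.

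Checked against their label, 5 of the 9 genes (Cpa3, Cma1, Mcpt4, Tpsb2 and Kit) lay above the median of the negative control features of the same array on all 12 arrays. That median was between 5.91 and 6.14. Hdc was under it on 11 arrays, and Tpsab1, Ms4a2 and Mrgprb1 were under it on all 12. The negative control features spread widely, with a 95th percentile of 9.64 to 10.55, and all 108 values of the 9 genes were under that percentile of their array. A gene was tested if at least 3 of the 12 arrays reached a log2 signal of 5.25, the 40th percentile of all transcript clusters; 22066 genes did. 6 of the 9 did so, each on all 12 arrays: Cpa3, Cma1, Mcpt4, Tpsb2, Kit and Hdc. The other 3 are given by their values alone. Signals of different genes come from different probes, so levels are compared only within a gene.

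Promoters of 7 of the 9 genes were in the RefSeq promoter table (GRCm38.p6), in 8 windows of 250 bases before the transcription start. The windows of Cpa3, Mcpt4 and Cma1 are shown because Cpa3 and Mcpt4 had the highest Pearson's r of any pair of the set over the arrays, while Cma1, a neighbour of Mcpt4 on the chromosome, had another. All 3 lie on the minus strand, and each is written 5′ to 3′ with the transcription start just after its last base. The capitals mark a GATA hexamer, the core bound by GATA factors such as Gata2, which mast cells require (searched on both strands as GATA with A or T before it and A or G after it; a match on the other strand is printed as its reverse complement). The Cpa3 window is chr3:20242182-20242431, of which the last bases lie inside the annotated span of the gene, the Mcpt4 window is chr14:56062311-56062560 and the Cma1 window is chr14:55944676-55944925.
Cpa3: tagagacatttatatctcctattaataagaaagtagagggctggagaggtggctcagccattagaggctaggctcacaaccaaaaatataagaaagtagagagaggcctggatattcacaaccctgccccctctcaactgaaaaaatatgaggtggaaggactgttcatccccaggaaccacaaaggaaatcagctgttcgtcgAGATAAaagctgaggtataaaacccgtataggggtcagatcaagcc
Mcpt4: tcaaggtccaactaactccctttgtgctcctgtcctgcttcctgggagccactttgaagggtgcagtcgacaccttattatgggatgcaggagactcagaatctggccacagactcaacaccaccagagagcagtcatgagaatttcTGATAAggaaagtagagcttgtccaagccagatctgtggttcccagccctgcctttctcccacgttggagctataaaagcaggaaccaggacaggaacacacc
Cma1: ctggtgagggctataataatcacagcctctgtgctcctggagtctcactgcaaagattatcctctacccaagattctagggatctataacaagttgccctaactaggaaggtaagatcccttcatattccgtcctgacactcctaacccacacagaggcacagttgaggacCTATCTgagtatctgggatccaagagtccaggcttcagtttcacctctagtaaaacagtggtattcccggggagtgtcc
The hexamer began at position -46 from the start in Cpa3, at -103 in Mcpt4 and at -79 in Cma1, where it is on the other strand. Among all 8 windows, 6 held the hexamer, namely those of Cpa3, Mcpt4, Cma1, Hdc, Mrgprb1 with 2 matches and Ms4a2 with 3, and both Kit windows held 0. Of all 32851 promoter windows of this length, 26.5% held one. The RUNX hexamer TGTGGT stood in 2 of the 8 windows (Cpa3 and Mcpt4), against 14.0% of all windows. The E-box CANNTG was in 4 against 66.2%, and the ETS core AGGAAG in 5 against 29.5%, all counted on both strands. Both Kit windows overlap almost fully and hold the same ETS match, which is therefore counted in each. These are matches of letters and show no binding.

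Among the 6 genes that passed the filter, 5 had a test at days 3 and 7. Of these, 3 differed from day 0 by limma's test at day 3 or day 7, where 11.8% and 25.2% of all genes were called. At day 7 the chymase gene Mcpt4 and Kit fell below untreated vessels. The day 7 arrays of Cpa3 and Tpsb2 also lay below all day 0 arrays, as did those of 20.5% of all genes. At day 3 the chymase gene Cma1 rose and Kit fell. The day 3 arrays of Hdc lay above all day 0 arrays, as did those of 23.3% of all genes. At day 1 no gene of the set passed the test.

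In counts, limma called 0 of 6 genes at day 1 against day 0 (Benjamini-Hochberg adjusted p under 0.05 over all 22066 genes), where 3.62% of all genes were called; 1 of the 6, Cpa3, had an unadjusted p under 0.05, as did 3622 of all genes (16.4%). At day 3 it called 2 of the 5 genes with a test, 1 higher (Cma1) and 1 lower (Kit), against 11.8% of all genes (4.61% higher and 7.14% lower). For 2 genes, Cma1 and Hdc, all day 3 arrays lay above all day 0 arrays, which 23.3% of all genes showed, and for 1, Kit, all lay below, which 21.4% showed. At day 7 it called 2 of 5, both lower (Mcpt4 and Kit), against 25.2% of all genes (12.1% higher and 13.2% lower). For 3 of these 5, Mcpt4, Tpsb2 and Kit, and for Cpa3, all day 7 arrays lay below all day 0 arrays, as they did for 20.5% of all genes. With so few genes, neither share can be read as particular to mast cell genes. The median change of the 6 genes was 0.15 log2 units at day 1, 0.42 at day 3 and -0.45 at day 7, where the medians of all genes tested were 0.01, 0.08 and 0.09. Without Cpa3 the medians of the other 5 were 0.13, 0.39 and -0.36. All 3 comparisons use the same day 0 arrays.

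**Figure D1:**
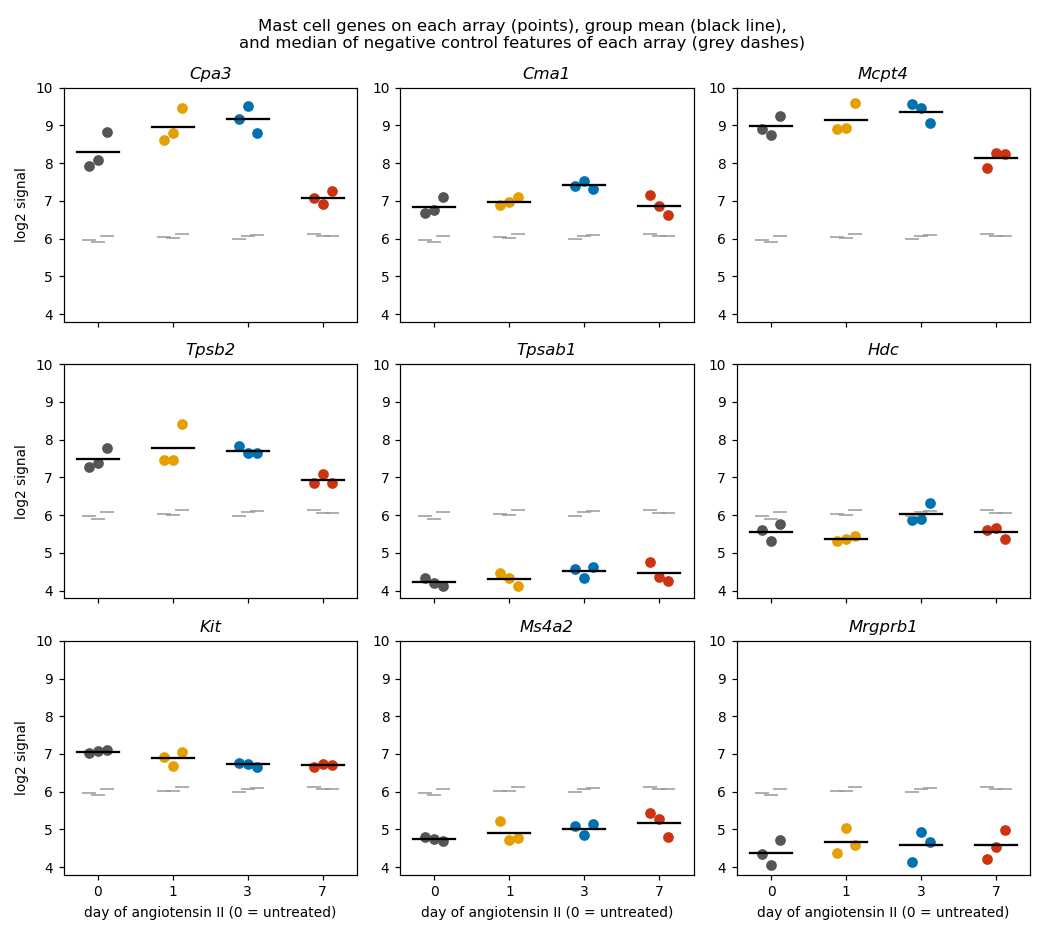
Log2 signal (y axis) of the 9 genes on each array by day of angiotensin II (x axis, day 0 untreated), with the mean of 3 arrays as a black line and each array's negative control median as a grey dash. The day 7 arrays of Cpa3, Mcpt4 and Tpsb2 lie below all other arrays of the same gene, those of Kit lie level with day 3, and Tpsab1, Ms4a2 and Mrgprb1 lie under the negative control median throughout.

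Cpa3 encodes carboxypeptidase A3, a granule metalloprotease that trims peptides from the carboxyl end, and lies at chr3:20215616-20242209 (GRCm38). Its log2 signal was 7.92, 8.09 and 8.84 at day 0, 8.62, 8.79 and 9.47 at day 1, 9.18, 9.51 and 8.80 at day 3, and 7.08, 6.91 and 7.27 at day 7. The day 1 and day 3 arrays were mostly above day 0 but overlapped it, through day 0 replicate 3, and the day 7 arrays were below all 9 others. The means were 8.28 ± 0.49, 8.96 ± 0.45, 9.16 ± 0.36 and 7.09 ± 0.18 in the order of the days (SD, n = 3 each). At day 1 the change from day 0 was 0.68 ± 0.29 log2 units (SE; adjusted p = 0.289), a fold of 1.60 that did not pass. It was 0.42 without day 1 replicate 3 and 1.18 with a covariate made from adipocyte marker genes, and passed in neither. The values that chose the gene, 7.09 at day 7 and 9.16 at day 3, differ by -2.07 log2 units, a signal 4.20-fold lower. Against day 0, where no test is given either, Cpa3 stood at 0.88 ± 0.29 log2 units at day 3 and at -1.19 ± 0.29 at day 7 (SE), 1.84-fold higher and 2.29-fold lower.

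Mcpt4 encodes the chymase of connective tissue mast cells, which binds heparin in the granule, cleaves after aromatic residues and is the mouse enzyme closest in function to human chymase. It lies at chr14:56059744-56062310. Its log2 signal was 8.92, 8.75 and 9.26 at day 0, 8.91, 8.92 and 9.59 at day 1, 9.57, 9.45 and 9.06 at day 3, and 7.88, 8.27 and 8.25 at day 7. The groups of days 0, 1 and 3 overlapped, and every day 7 array was below all 9 others. Mcpt4 averaged 8.13 ± 0.22 at day 7, against 8.97 ± 0.26 in untreated vessels (SD over 3 arrays each), a fall of -0.84 ± 0.22 log2 units (SE; adjusted p = 0.0267), 1.79-fold. At day 7 against day 1 the change was -1.01 ± 0.22 (adjusted p = 0.0411), 2.01-fold, the only call among the 5 genes tested in that comparison, where 4.79% of all genes were called and 2.91% were called lower. At day 1 (0.17 ± 0.22, adjusted p = 0.857) and day 3 (0.39 ± 0.22, adjusted p = 0.281) against day 0 it did not pass. The call against day 1 was lost without day 0 replicate 1, 2 or 3, day 1 replicate 2 or 3, day 3 replicate 2 or 3, or day 7 replicate 1 or 2. The call at day 7 against day 0 was lost without day 0 replicate 1 (adjusted p = 0.0629), day 0 replicate 3 (0.0837) or day 7 replicate 1 (0.0857).

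Tpsb2 encodes the main tryptase of mouse connective tissue mast cells, a trypsin-like protease that works as a tetramer bound to heparin, at chr17:25366308-25368096. The Tpsb2 signal was 7.27, 7.39 and 7.78 at day 0, 7.46, 7.47 and 8.43 at day 1, 7.84, 7.64 and 7.65 at day 3, and 6.86, 7.08 and 6.86 at day 7. As for Mcpt4 and Cpa3, day 1 replicate 3 was the highest or next to the highest array and the 3 day 7 arrays were the lowest. At day 7 Tpsb2 averaged 6.93 ± 0.13, against 7.48 ± 0.27 at day 0 (SD, n = 3 each); the change of -0.54 ± 0.24 log2 units (SE; adjusted p = 0.118) did not pass. It passed without day 1 replicate 3 (adjusted p = 0.0234) and with each array centred on its median (-0.82, adjusted p = 0.0499). At day 7 against day 1 it stood at -0.85 ± 0.24 (adjusted p = 0.0664), and at days 1 and 3 against day 0 at 0.31 ± 0.24 and 0.23 ± 0.24 (adjusted p = 0.662 and 0.539).

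Tpsab1, at chr17:25343245-25345562 beside Tpsb2, encodes a second granule tryptase in other mouse strains and is listed by RefSeq as a transcribed pseudogene. Over all 12 arrays its log2 signal ran from 4.13 to 4.77, under the negative control median of each array and under the filter level on each. No change of Tpsab1 can be read from signals at that level. Tpsb2 lay above that median on all 12 arrays, but under the 95th percentile of the negative control features on each. The 2 tryptase genes are read by different probes, so their levels were not compared.

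Cma1 encodes the other chymase of the set, which in the mouse has elastase-like specificity and is stored in granules together with carboxypeptidase A3. It lies at chr14:55941451-55944675, in the same protease gene cluster as Mcpt4. On the log2 scale Cma1 was at 6.67, 6.77 and 7.10 at day 0, 6.88, 6.96 and 7.09 at day 1, 7.41, 7.52 and 7.33 at day 3, and 7.15, 6.85 and 6.63 at day 7. The day 3 arrays were above all others, and the day 7 arrays spread over the day 0 range. Cma1 averaged 7.42 ± 0.10 at day 3, against 6.85 ± 0.22 in untreated vessels (SD over 3 arrays each), a rise of 0.57 ± 0.15 log2 units (SE; adjusted p = 0.0378), 1.48-fold. At day 7 it averaged 6.88 ± 0.26, a change of 0.03 ± 0.15 (adjusted p = 0.889), and at day 1 the change was 0.13 ± 0.15 (adjusted p = 0.809). The day 3 call was lost with arrays centred on their medians (0.39, adjusted p = 0.137), after quantile normalization (0.54, adjusted p = 0.0513) and without any of day 0 replicates 1 and 2, day 3 replicates 1, 2 and 3, day 1 replicate 2 or day 7 replicate 2 (adjusted p = 0.0509 to 0.118). The sign at day 7 turned with both of these scalings, to -0.24 and -0.05.

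The 2 chymase genes were also set against each other, a pair singled out after their values were seen, so that the values are a description. Taken within each array, Mcpt4 minus Cma1 was 1.26 ± 0.47 log2 units at day 7 (0.73 to 1.62) and 2.13 ± 0.14 at day 0 (1.98 to 2.24; SD, n = 3 each). The ranges did not overlap, and the difference of -0.87 gave p = 0.1 in an exact two-sided permutation test, the smallest p that 3 against 3 arrays allow. At day 3 the difference from day 0 was -0.18 (exact permutation p = 0.3) and at day 1 it was 0.03 (exact permutation p = 0.9).

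Hdc encodes histidine decarboxylase, which makes histamine from histidine in mast cells and basophils, at chr2:126593659-126624025. The signal of Hdc was 5.60, 5.33 and 5.77 at day 0, 5.30, 5.36 and 5.44 at day 1, 5.87, 5.89 and 6.32 at day 3, and 5.61, 5.65 and 5.38 at day 7. Only day 3 replicate 3 exceeded its array's negative control median, so these signals are close to background. The day 3 arrays lay above all the others. Hdc averaged 6.03 ± 0.25 at day 3, against 5.57 ± 0.22 in untreated vessels (SD over 3 arrays each), a change of 0.46 ± 0.15 log2 units (SE; adjusted p = 0.0772) that did not pass. At days 1 and 7 the changes were -0.20 ± 0.15 and -0.02 ± 0.15 (adjusted p = 0.628 and 0.927).

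Kit encodes the receptor tyrosine kinase for stem cell factor, on which mast cell survival depends and which other cells, such as melanocytes and interstitial cells, carry too. It lies at chr5:75574987-75656722. Kit read 7.03, 7.07 and 7.09 at day 0, 6.91, 6.69 and 7.04 at day 1, 6.76, 6.75 and 6.66 at day 3, and 6.66, 6.74 and 6.71 at day 7. Days 3 and 7 lay below all day 0 arrays and overlapped each other. Kit averaged 6.72 ± 0.05 at day 3 and 7.06 ± 0.03 at day 0, a fall of -0.34 ± 0.09 log2 units (SE; adjusted p = 0.0358). At day 7 it averaged 6.70 ± 0.04 (SD, n = 3 each), and the fall from day 0 was -0.36 ± 0.09 (adjusted p = 0.0183). At day 1 the change of -0.18 ± 0.09 did not pass (adjusted p = 0.349). Without any 1 array of day 0 or day 3 the day 3 call was lost (adjusted p = 0.0648 to 0.131), and the day 7 call was lost without day 0 replicate 2 (0.0526), day 0 replicate 3 (0.0577) or day 7 replicate 1 (0.0501). Kit was thus low already at day 3, when Cpa3, Mcpt4 and Tpsb2 averaged above their day 0 means; the difference in course was not tested.

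Ms4a2 encodes the beta chain of the high-affinity IgE receptor, at chr19:11615517-11623790. Its log2 signal was 4.80, 4.75 and 4.69 at day 0, 5.21, 4.73 and 4.78 at day 1, 5.09, 4.85 and 5.14 at day 3, and 5.45, 5.29 and 4.79 at day 7. The signals of 2 day 7 arrays reached the filter level, and none of the 12 reached the negative control median, so no test was made. Mrgprb1, at chr7:48444113-48456342, encodes a receptor of the Mas-related family, to which the mast cell receptor for basic secretagogues Mrgprb2 also belongs. It ran from 4.07 to 5.04 over the 12 arrays, with overlapping groups and 12 arrays under the negative control median.

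**Figure D2:**
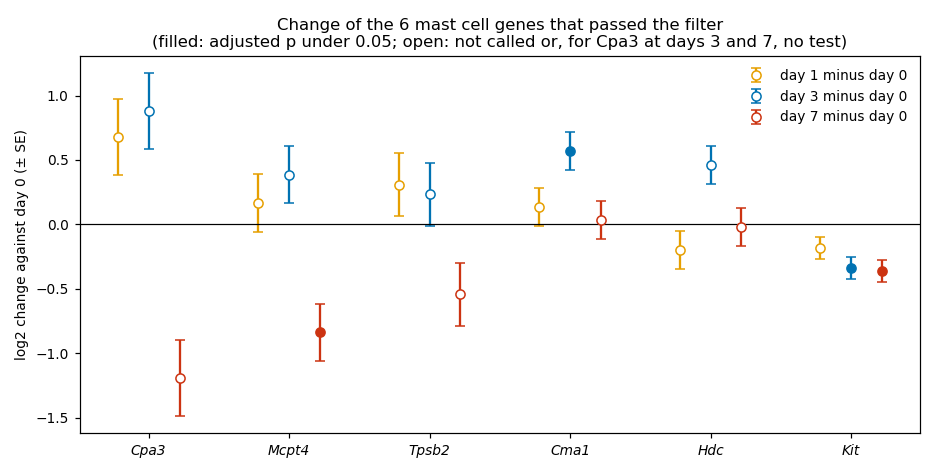
Log2 change from day 0 (y axis, ± SE) at days 1, 3 and 7 for the 6 genes that passed the filter (x axis); filled points passed limma's test, open points did not or, for Cpa3 at days 3 and 7, were not tested. The filled points are Mcpt4 at day 7 (-0.84), Cma1 at day 3 (0.57) and Kit at days 3 (-0.34) and 7 (-0.36).

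Between treated days, the only call among genes with a test was Mcpt4 at day 7 against day 1, given above. At day 7 against day 3, the comparison that chose Cpa3 and so given without a test, Mcpt4 stood at -1.22 log2 units (2.34-fold lower), Tpsb2 at -0.78, Cma1 at -0.54 and Hdc at -0.48. For these 4 genes all day 7 arrays were below all day 3 arrays, which 7.97% of all genes showed, while Kit (-0.02) overlapped. Cpa3, chosen on this comparison, is left out of that count. Mcpt4 and Tpsb2 ran close to Cpa3 over the same arrays (Pearson's r of 0.95 and 0.88), so their values are not separate from that choice. Of all genes, limma called 0.267% in this comparison. At day 3 against day 1 limma called 0 of 5 genes and 0 of all 22066 (0%), with 2 of the 5 and 1776 of all at an unadjusted p under 0.05. Those 2 were Hdc (0.66 ± 0.15, adjusted p = 0.604) and Cma1 (0.44 ± 0.15, adjusted p = 0.604), for both of which the day 3 arrays lay above all day 1 arrays, as they did for 7.04% of all genes. At day 7 against day 1 Cpa3, with no test, was at -1.87 log2 units, a signal 3.66-fold lower.

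Among themselves the 6 genes fell into those close to Cpa3 and those apart from it. Over the 12 arrays Pearson's r was 0.95 between Cpa3 and Mcpt4, 0.88 between Cpa3 and Tpsb2 and 0.91 between Mcpt4 and Tpsb2 (Spearman's rho 0.94, 0.91 and 0.96). Cma1 had r of 0.63 to Cpa3 and 0.71 to Hdc, and Kit had 0.25 to Cpa3. With each group's mean removed, r stayed at 0.79, 0.72 and 0.84 for the first 3 pairs and was 0.54, 0.72 and 0.76 for Kit with Cpa3, Mcpt4 and Tpsb2. As examples, day 0 replicate 3 and day 1 replicate 3 were 0.55 and 0.51 above their group means in Cpa3, 0.28 and 0.45 in Mcpt4 and 0.30 and 0.64 in Tpsb2. Other arrays went apart: day 7 replicate 2 was at -0.18 in Cpa3 but at 0.14 in Mcpt4 and 0.15 in Tpsb2, and day 3 replicate 2 was at 0.35, 0.09 and -0.07. These are descriptions over 12 arrays, whose genes share the same RNA and the same scaling.

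**Figure D3:**
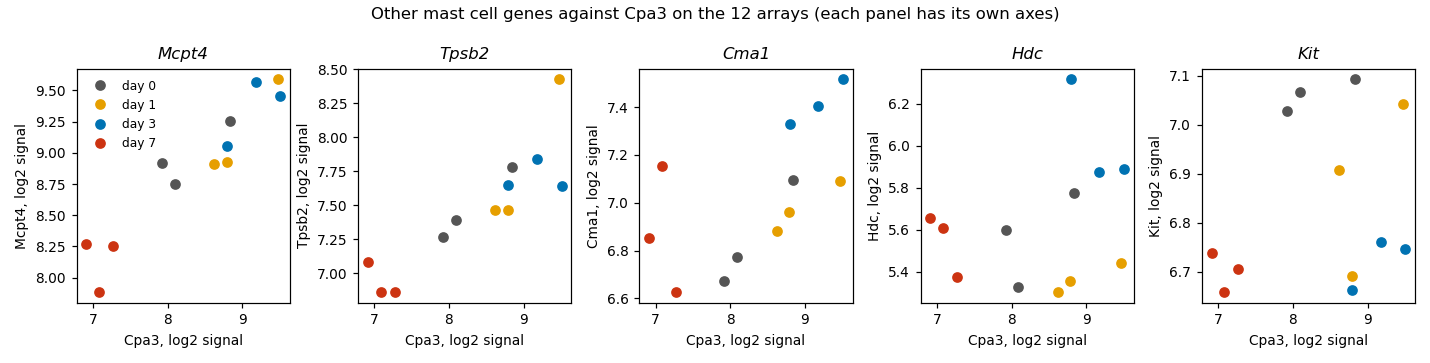
Log2 signal of Mcpt4, Tpsb2, Cma1, Hdc and Kit (y axes) against that of Cpa3 (x axes) on the 12 arrays, coloured by day, each panel with its own axes. Mcpt4 and Tpsb2 run along a line with Cpa3 (r of 0.95 and 0.88), whereas in the Kit panel (r of 0.25) the day 0 arrays lie above those of days 3 and 7.

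The genes outside the set most like it were found by Pearson's r over the 12 arrays to the mean of its 6 genes that passed the filter, each centred on its own mean. To that mean the set's own genes had r of 0.97 (Cpa3), 0.97 (Mcpt4), 0.92 (Tpsb2), 0.69 (Cma1), 0.44 (Hdc) and 0.28 (Kit), so it follows mostly the first 3. The 10 highest others were Foxk2 (0.867), Rnft1 (0.856), Tatdn2 (0.848), Srm (0.845), S100a16 (0.842), Fbln1 (0.840), Foxc2 (0.833), Txndc11 (0.829), Tusc3 (0.824) and Sec22c (0.811). Their r to Cpa3 alone lay between 0.776 (Sec22c) and 0.893 (S100a16), and without the 2 arrays farthest from the median of the mean profile, day 1 replicate 3 and day 7 replicate 3, r ran from 0.782 (Srm) to 0.901 (Sec22c). None of these 10 reached the r of Tpsb2 to that mean, but Tpsb2 is itself a part of the mean, which raises its r. To Cpa3 alone, S100a16 had r of 0.893 and Tpsb2 0.884. Foxc2, a forkhead factor of vessel and lymphatic development, had the largest day 7 change of the 10, at -1.45 ± 0.34 log2 units against day 0 (SE). Fbln1, a matrix protein of elastic fibres and basement membranes, stood at 1.03 at day 3. The 10 genes were picked for following a mean that is lowest at day 7. Their changes by day are therefore not separate from that choice and are given as a description. These were the highest of many genes searched and carry no test of likeness.

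The remaining genes of mast cell biology were taken from lists of ligands, receptors, signalling, transcription, granule, mediator and target genes, and many of them act in other leukocytes as well. The counts below stand beside all genes, of which 1.99% rose and 1.63% fell at day 1, 4.61% rose and 7.14% fell at day 3, and 12.1% rose and 13.2% fell at day 7. Of 8 tested growth factors and cytokines that act on mast cells, 3 rose at day 1, 4 at day 3 and 1 at day 7, and none passed as lower. Kitl, which encodes stem cell factor, changed by -0.07 ± 0.20, -0.29 ± 0.20 and -0.31 ± 0.20 log2 units at days 1, 3 and 7 (adjusted p = 0.967, 0.366 and 0.259). Il33, an alarmin that activates mast cells through its receptor, rose by 1.97 ± 0.42 at day 3 (adjusted p = 0.0201) and by 1.85 ± 0.42 at day 7 (adjusted p = 0.0155). At day 1 the monocyte chemokine Ccl2 rose by 1.99 ± 0.35, the cytokine Il6 by 2.39 ± 0.53 and Tgfb1 by 0.34 ± 0.07 (adjusted p = 0.0209, 0.0424 and 0.0327).

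Of 5 tested surface receptors, 1 rose at day 1, 3 at day 3 and 1 at day 7. These were Il4ra, the interleukin 4 receptor chain, at all 3 days (2.36 ± 0.45 at day 3, adjusted p = 0.0136), and at day 3 also Fcer1g and Cd33. Fcer1g, the gamma chain shared by the IgE receptor and macrophage Fc receptors, rose by 1.25 ± 0.35 (adjusted p = 0.0493). The lectin gene Cd33 rose by 0.69 ± 0.18 (adjusted p = 0.0407). Fcer1a, the IgE-binding alpha chain, was under the negative control median on all 12 arrays with means of 4.19, 4.19, 4.55 and 4.15 over the 4 days, as was Mrgprb2 with 4.08, 4.09, 4.44 and 4.85. No change of Fcer1a or Ms4a2 can be read from signals at that level. Il1rl1, the Il33 receptor, was not analysed here.

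Of 17 tested genes of signalling below Kit and the IgE receptor, 4 rose at day 1, 5 at day 3, and 7 rose and 2 fell at day 7. The adaptor Lcp2 (1.12 ± 0.18, adjusted p = 0.00402), the lipid phosphatase Inpp5d (0.90 ± 0.17, adjusted p = 0.0072) and the exchange factor Vav1 (0.70 ± 0.10, adjusted p = 0.00206) were among those higher at day 7. The scaffold Gab2, which links both receptors to phosphoinositide 3-kinase, fell by 1.21 ± 0.20 log2 units at day 7 (adjusted p = 0.00434). Of 10 tested transcription factors 3 rose on each day, namely Runx1 (1.43 ± 0.26 at day 7, adjusted p = 0.00618), Spi1 (0.74 ± 0.17 at day 1, adjusted p = 0.0476) and Ikzf1 (0.65 ± 0.09 at day 7, adjusted p = 0.00261), and Meis2 fell at day 7 (-0.46 ± 0.12, adjusted p = 0.0242). Gata2 and Mitf, 2 factors on which mast cell identity depends, gave changes of -0.09 ± 0.09 and -0.07 ± 0.07 at day 7 that did not pass (adjusted p = 0.46 and 0.461).

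Of 6 tested genes among the other proteases and granule components, limma called 0 at days 1, 3 and 7, with 0, 0 and 2 at an unadjusted p under 0.05, against 16.4%, 28.2% and 43.4% of all genes. The remaining protease genes of the list, Mcpt1, Mcpt2, Tpsg1, Ctsg and Gzmb, did not pass the filter. Srgn, the proteoglycan core that holds proteases in granules of mast cells and other blood cells, was at 0.50 ± 0.28 log2 units at day 7 (adjusted p = 0.186). Of 9 tested genes of amine and eicosanoid synthesis, 3 rose at day 1, 2 rose at day 3, and 1 rose and 1 fell at day 7. Those that rose at day 1 were Alox5ap (2.30 ± 0.37, adjusted p = 0.0156) and Alox5 (0.67 ± 0.09, adjusted p = 0.00854), which act in leukotriene synthesis, and the prostaglandin D2 synthase gene Hpgds (0.96 ± 0.20, adjusted p = 0.0375). Ptgs2, the inducible cyclooxygenase, fell by 3.47 ± 0.72 at day 7 (adjusted p = 0.0105), and the amine transporter gene Slc18a2 gave 0.98 ± 0.42 at day 7 (adjusted p = 0.102).

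Of 13 tested receptors and substrates of mast cell products, 1 rose at day 1, 1 at day 3, and 2 rose and 2 fell at day 7. Ace, the angiotensin-converting enzyme and so the other route to angiotensin II beside chymase, fell by 1.90 ± 0.62 log2 units at day 7 (adjusted p = 0.0492), in the same comparison in which Mcpt4 fell by 0.84. The gelatinase Mmp2, whose proform chymase can activate, rose by 2.37 ± 0.39 at day 7 (adjusted p = 0.00421), and the endothelin gene Edn1 rose by 1.46 ± 0.34 at day 1 (adjusted p = 0.0474) and fell by 1.38 ± 0.34 at day 7 (adjusted p = 0.0194). Agt (0.58 ± 0.19, adjusted p = 0.0512), Agtr1a (0.61 ± 0.22, adjusted p = 0.0651) and the histamine receptor gene Hrh1 (0.16 ± 0.14, adjusted p = 0.398) did not pass at day 7. Hrh2 was under the negative control median on all 12 arrays, and the tryptase-activated receptor F2rl1 was not analysed here. Median changes of the 7 lists lay between 0.00 and 0.58 at day 1, 0.02 and 0.69 at day 3, and 0.14 and 0.41 at day 7, on the higher side of the medians of all genes at days 3 and 7 in most lists. The 0.41 was that of the other proteases and granule components, most of whose tested genes lay near or under the negative control median.

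**Figure D4:**
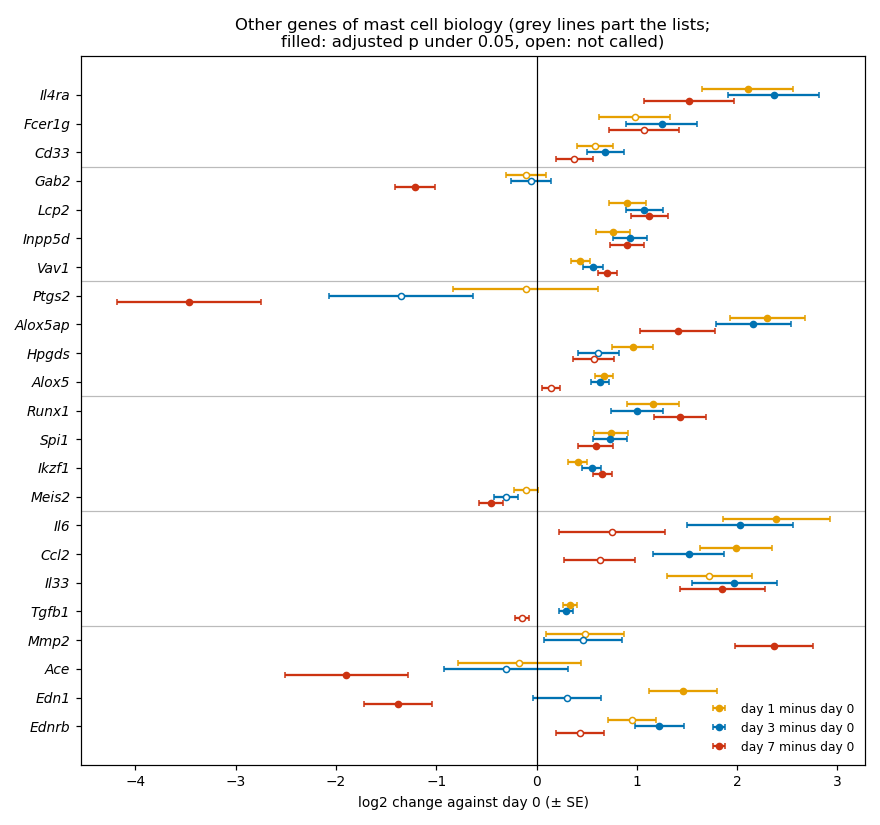
Log2 change from day 0 (x axis, ± SE) at days 1, 3 and 7 for called genes of the ligand, receptor, signalling, transcription, mediator and target lists (y axis), filled where limma's adjusted p was under 0.05. Most points lie right of 0, such as Il4ra and Alox5ap, and the day 7 points of Ptgs2 (-3.47), Ace (-1.90), Edn1 (-1.38), Gab2 (-1.21) and Meis2 (-0.46) lie left of it.

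Markers of other cells and the control features moved with the days as well. The mean of the macrophage markers was 7.15 to 7.49 log2 units at day 0, 8.62 to 9.24 at day 1, 8.67 to 9.26 at day 3 and 8.39 to 9.48 at day 7, and 11 of 12 were called higher at day 7, beside the rises of Alox5ap, Spi1 and Lcp2. Fcer1g, called at day 3, stood at 1.07 at day 7 and did not pass limma's test (adjusted p = 0.0506). Smooth muscle markers were at 14.32 to 14.47, 12.33 to 14.01, 11.68 to 12.88 and 9.04 to 11.85 in the same order, with 7 of 8 lower at day 7. Fibroblast markers were at 13.73 to 14.53 at day 7, against 12.21 to 13.34 at day 0 (3 of 7 higher), and cardiac muscle markers at 7.21 to 7.35 at day 7, against 6.14 to 6.35 at day 0 (6 of 7 higher). Brown adipocyte markers were at 6.83 to 8.19 at day 7, against 8.26 to 8.65 at day 0 (1 of 7 lower), and endothelial markers averaged 8.60 at day 7, against 9.18 at day 0, without overlap (2 of 8 lower). Skeletal muscle markers had 5 of 7 called higher at day 7, and lymph node and mesothelial markers were at 6.84 to 7.02 at day 3, against 5.75 to 5.84 at day 0 (1 of 4 higher). White adipocyte markers overlapped, at 10.10 to 10.73 at day 7 and 10.28 to 10.59 at day 0. Basophils share Hdc, Gata2 and the IgE receptor with mast cells; of 5 basophil markers all but Gata2 were under the negative control median on every array, as were all 5 measured eosinophil markers and at least 6 of 7 melanocyte markers.

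The gap between control features, taken as the positive median less the negative median of an array, was 2.56 to 2.64 log2 units at day 0, 1.94 to 2.51 at day 1, 1.83 to 2.11 at day 3 and 1.20 to 2.10 at day 7, so all 9 treated arrays lay below day 0. The 1.20 was that of day 7 replicate 1, and the other day 7 arrays were at 1.98 and 2.10. Without day 7 replicate 1, limma called neither Mcpt4 (adjusted p = 0.0857) nor Kit (0.0501) at day 7 against day 0. Both calls were also lost without day 0 replicate 3. With that gap as a covariate, Mcpt4 at day 7 stood at -0.30 (adjusted p = 0.623), Kit at -0.27 (0.299), and at day 3 Cma1 stood at 0.41 (0.284) and Kit at -0.28 (0.229); with a covariate made from the 2 adipocyte lists, Mcpt4 at day 7 stood at -0.67 (0.141) and Kit at -0.32 (0.0959). The medians of all transcript clusters were also higher by 0.18 log2 units at day 3 and by 0.27 at day 7 than at day 0. Relative to that shift, with each array centred, Mcpt4 at day 7 stood at -1.11 (adjusted p = 0.0156), Kit at -0.64 (0.0116) and Cpa3, with no test, at -1.47, and the split of all calls at day 7 changed to 1264 higher and 4842 lower, against 2666 and 2904 on the deposited scale. Because the gap was below day 0 on all 9 treated arrays, its covariate cannot be fully told apart from the infusion. Over all genes, the 5570 calls at day 7 became 771 with that covariate and 1726 with the adipocyte covariate. The lost calls therefore do not measure the part of these cells or control features in the results of the mast cell genes, which was not tested.

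**Figure D5:**
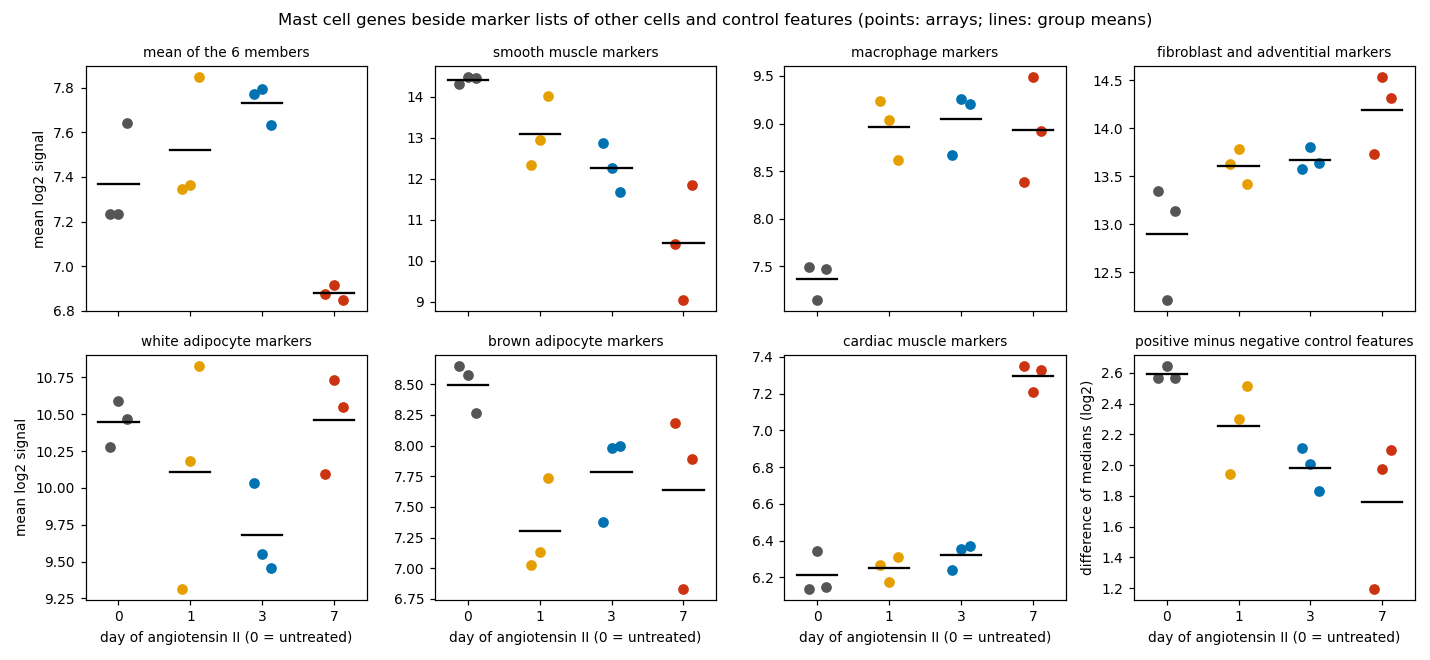
Mean log2 signal (y axes) per array by day (x axis) of the 6 mast cell genes that passed the filter and of marker lists of other cells, and the difference of control feature medians, with group means as lines; each panel has its own axis. The mast cell mean is lowest at day 7, where the cardiac list is highest (7.21 to 7.35), the smooth muscle list lowest (9.04 to 11.85) and the white adipocyte list overlaps day 0. That mast cell mean includes Cpa3, which was selected on its lower signal at day 7 than at day 3.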

How the data were processed

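Per the labels' protocols, total RNA of mouse vessels was extracted with TRIzol, labelled with biotin and hybridised to Affymetrix arrays. The labels name an older mouse genome array, whose probe sets are not those of the table; features were taken by the deposited transcript cluster identifiers. The authors deposited log2 signals. Per the submitters' processing notes they used Affymetrix Expression Console; the sources used here do not give the normalization, and the scale ends at a ceiling of 19.93. Of 65956 transcript clusters, 31258 had 1 gene symbol, updated through RefSeq synonyms, and the one with the highest mean was kept for each of 30702 genes.

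Differences of log2 signals were tested with limma 3.58.1 (R 4.3.3) on all 12 arrays, with a mean per day, no trend, and Benjamini-Hochberg adjustment over 22066 genes at 0.05; the test was checked on simulated data. Promoters came from RefSeq (GRCm38.p6). Named genes were all 9 members, up to 4 called genes per list with the largest change, 17 genes listed by name and the 10 genes most alike; members and lists were chosen with earlier results of these data known. Same-numbered arrays were not treated as pairs in this test. Of 18 such pairs, 7 had a correlation of deviations over 0.1 (from -0.506 to 0.662), and 7 of 12 arrays correlated best with one of their own number. The number of arrays limits the precision. The alternatives were quantile normalization, centring, no or a stricter filter, averaged clusters, trended variances, a replicate block, 2 covariates, the compared arrays alone and leaving out each array.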

Additional observations from a re-analysis of the deposited data

How the results depend on the processing

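The count of mast cell genes called at day 1 against day 0 was 0 under every alternative run, as at day 3 against day 1. At day 3 against day 0 the count of 2 was 1 (Kit) after quantile normalization and with centred arrays, 0 with the replicate block, 0 with the adipocyte covariate and 0 with the control-feature covariate. At day 7 against day 0 the count of 2 was 0 with either covariate and 3 with centred arrays (Kit, Mcpt4 and Tpsb2). At day 7 against day 1 the count of 1 was 2 (Mcpt4 and Tpsb2) after quantile normalization, with centred arrays and with the adipocyte covariate, and 0 with the control-feature covariate and with the 6 compared arrays alone. Leaving out 1 array at a time gave 0 to 2 genes at day 3, 0 to 3 at day 7 and 0 to 2 at day 7 against day 1.

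With the replicate block, Cma1 (adjusted p = 0.0637) and Kit (0.0526) at day 3 did not pass, and Mcpt4 (0.0356) and Kit (0.0291) at day 7 did; 7 of 12 arrays correlated best with an array of their own number, a hint from the data and not from the design. Cpa3 at day 7 against day 3 lay between -2.25 and -1.90 without 1 array, at -2.15 after quantile normalization and at -2.16 with centred arrays. At day 3 against day 0 it was 1.37 with the adipocyte covariate.

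Signs turned for 4 changes that passed in no setting. Without 1 array at a time these lay between -0.11 and 0.16 for Cma1 at day 7, -0.058 and 0.31 for Mcpt4 at day 1, -0.014 and 0.47 for Tpsb2 at day 1, and -0.14 and 0.082 for Hdc at day 7. Cma1 at day 7 was -0.048 after quantile normalization, -0.24 with centred arrays, -0.18 with the control-feature covariate, and -0.057, -0.0066 and -0.11 without day 0 replicate 1, day 0 replicate 2 and day 7 replicate 1. Without day 1 replicate 3, Mcpt4 at day 1 was -0.058 and Tpsb2 -0.014. Hdc at day 7 was 0.082 without day 0 replicate 3 and 0.063 without day 7 replicate 3. Hdc was not tested under the stricter filter, which it did not pass. The cause of these changes was not tested. Of 349 tested values of single genes under alternatives, 306 kept their direction and their side of the threshold, but most belong to changes that were not called at the outset. Calls were lost in 31. With the main fit counted, Cma1 at day 3 passed in 11 of 23 settings and Kit at day 3 in 14. At day 7 Kit passed in 18 of 23 and Mcpt4 in 18. Cpa3 at days 3 and 7, which has no test, is not among the 349.

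Over all genes the control-feature covariate left 464 calls of 2593 at day 3 and 771 of 5570 at day 7, and the adipocyte covariate left 0 of 799 at day 1, 16 at day 3 and 1726 at day 7. Quantile normalization gave 433 at day 1, and the 6 compared arrays alone gave 209 at day 1, 4523 at day 3 and 2719 at day 7. At day 3 the split of calls was 544 higher and 1269 lower after quantile normalization and 472 and 1579 with centred arrays, against 1018 and 1575 as deposited; at day 7 quantile normalization gave 1256 higher and 4132 lower.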
